A study of Mus musculus with 6 samples.

Results

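The Wnt ligands, their Frizzled receptors and the secreted proteins that tune them were followed through differentiation of C2C12 cells, an immortal line of mouse muscle progenitors that grow as single-nucleated myoblasts and fuse into multinucleated myotubes when serum is lowered. The genes were taken by symbol, as every row whose name is Wnt, Fzd, Sfrp, Dkk or Rspo followed by a number and, in some, the letter a or b. This gave 41 of the 54525 gene rows: 19 Wnt ligands, 10 Frizzled receptors, 4 secreted Frizzled-related proteins, 4 Dickkopf proteins and 4 R-spondins. RNA was sequenced from 3 libraries of WT, untreated cells at D0, when they were growing myoblasts, and from 3 libraries of the same line at D5 of differentiation. All 6 libraries came from this 1 cell line, the labels call the cells of both groups myoblasts, and no source used here says whether the 3 libraries of a group came from separate cultures, so the p-values measure the spread between these libraries.

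Wnt proteins are lipid-modified signals that act over short distances. They bind a Frizzled receptor, and with the co-receptors *Lrp5* or *Lrp6* they stabilise beta-catenin, which enters the nucleus and works with TCF and LEF factors. With other co-receptors they act on cell polarity and calcium instead. Secreted Frizzled-related proteins (Sfrp) bind Wnts outside the cell, Dickkopf proteins (Dkk) mostly block the *Lrp5* and *Lrp6* co-receptors, and R-spondins (Rspo) protect Frizzled receptors from removal at the cell surface. In muscle, Wnt signals are known for inducing the muscle lineage in the embryo and for steering satellite cells between expansion and differentiation.

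Gene counts summed to between 36555048 and 40895840 in the D0 libraries and between 25449759 and 25811300 in the D5 libraries. The cells matched their labels by day in the myotube and proliferation markers: 9 of 9 myotube markers were higher at D5 and 6 of 6 proliferation markers were lower. The list of 4 myoblast markers was mixed, with 3 lower and 1 higher at D5. *Myod1*, *Myf5* and *Pax7* were at 61.0, 20.0 and 30.5% of their D0 level, but *Des* was at 165%. None of 4 adipocyte and 4 osteoblast markers had enough counts to be tested, and the highest of them, *Fabp4*, reached 11 counts. Of 3 endothelial markers only *Kdr* was tested, with 90 to 118 counts at D0 and 5 or 6 at D5, and of 3 leukocyte markers only *Cd68*, with 123 to 130 counts at D0 and 46 to 63 at D5, and both were lower at D5. The other leukocyte markers, *Ptprc* and *Adgre1*, stayed at 3 counts or fewer in every library. Of a list of 5 fibroblast markers, 4 were higher at D5 and *Ly6a* passed no test, and their summed level went from between 34.7 and 38.0 CPM (counts per 1000000, scaled for library size and composition) at D0 to between 310 and 349 at D5, with none of the 5 at or under 3 counts throughout. In these bulk libraries, fewer cells of a type and less RNA per cell cannot be told apart. Transcriptome-wide, 82.9% of the 16290 genes tested differed between the days, 42.2% higher and 40.8% lower at D5, and 19.3% were at least 2-fold higher and 16.0% at least 2-fold lower. These shares are the background for every count of family members given here.

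Of the 41 genes, 10 had no count in any library and a further 4 never exceeded 3 counts. The filter on low counts left 23 for testing. A gene with almost no counts at D0 passed it only through its D5 level, so the 23 are not a sample of the families and their counts are a description. Among them, 17 were higher at D5, 5 were lower and 1 passed no test (edgeR's quasi-likelihood test, Benjamini-Hochberg adjusted p under 0.05 over all genes tested). The D5 libraries lay entirely above the D0 libraries for those 17 and entirely below for those 5, where 42.2% and 41.1% of all genes tested were separated in the same directions. Of the 23, 14 were at least 2-fold higher and 3 at least 2-fold lower. When libraries were scaled instead to the ERCC spike-ins, RNAs added to each sample that made up from 0.720 to 2.09% of counts within the 3 D5 libraries, 67.4% of all calls were lower in place of 49.2%, and the median of all genes moved to -0.58 on the log2 scale. Under that scaling 8 members were called higher and 3 lower, and *Dkk2*, *Wnt5b*, *Wnt10b* and the 8 receptors otherwise called passed no test.

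*Wnt4*, the main ligand of the myoblasts, fell to 17.4% of its D0 level, and *Wnt11* and *Wnt7b* fell with it. *Wnt9a* and *Wnt10b*, already present at D0, rose 6.21-fold and 2.73-fold, and *Wnt10a*, *Wnt5a* and *Wnt6*, close to silent in myoblasts, appeared at D5. All 9 ligands that could be tested changed, 6 upward and 3 downward, each by at least 2-fold. *Wnt10a*, *Wnt5a* and *Wnt6* passed the filter only through their D5 level, so this count is a description. Of all genes tested, 19.3% were at least 2-fold higher and 16.0% at least 2-fold lower. With spike-in scaling *Wnt10b* (log2 fold change 0.89) and *Wnt5b* (1.02) passed no test, both with an edgeR adjusted p of 0.18.

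*Wnt4*, known for its roles in kidney and gonad development and in muscle progenitors, had 1016, 1130 and 939 counts at D0 and 109, 106 and 120 at D5. These are 25.8 ± 2.13 CPM (mean ± SD, n = 3) and 4.49 ± 0.291 CPM. All 3 D0 libraries were above all 3 D5 libraries, and the log2 fold change was -2.52 ± 0.083 (SE; edgeR adjusted p = 2.0e-22). *Wnt4* lies on the forward strand of chromosome 4 (GRCm38, chr4:137277489-137299726).

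*Wnt11*, a ligand of the polarity branch known for guiding cell movement in the embryo, had 69, 79 and 83 counts at D0 against 17, 20 and 17 at D5. *Wnt7b*, a ligand of the beta-catenin branch in lung, bone and vessels, had 67, 73 and 68 counts against 10, 15 and 8. The groups did not overlap for either gene. The log2 fold changes were -1.41 ± 0.21 for *Wnt11* (SE; edgeR adjusted p = 4.5e-07) and -1.96 ± 0.25 for *Wnt7b* (edgeR adjusted p = 2.3e-08).

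*Wnt9a*, best known for limb joints and the skeleton, rose from 214, 264 and 256 counts to 954, 982 and 904. That is 6.12 ± 0.352 CPM at D0 and 38.1 ± 1.76 CPM at D5, a log2 fold change of 2.63 ± 0.063 (SE; edgeR adjusted p = 5.7e-26). The 3 D5 libraries lay close together and far above D0. The gene lies on the forward strand at chr11:59306928-59333552, 16175 bases from *Wnt3a*, its neighbour on the opposite strand, which had no count in any library.

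*Wnt10a* and *Wnt10b*, close relatives that act through beta-catenin and restrain fat cell formation, both rose but from different starting points. *Wnt10a* had 6, 4 and 5 counts at D0 and 565, 620 and 572 at D5. *Wnt10b* had 144, 166 and 154 counts and then 275, 262 and 254. *Wnt10a* was thus near its floor in every D0 library, and the summed counts, corrected for library size, were 188 times higher at D5 (95% exact interval 114 to 337, counting error only; edgeR adjusted p = 3.2e-28). *Wnt10b* went from 3.87 ± 0.067 to 10.6 ± 0.371 CPM, a log2 fold change of 1.45 ± 0.092 (edgeR adjusted p = 3.9e-15).

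*Wnt6*, an epithelial ligand that acts on the early somite, lies 6193 bases upstream of *Wnt10a* on the same strand of chromosome 1, with no annotated gene between them. It had 2, 0 and 4 counts at D0 and 28, 31 and 32 at D5, a count ratio of 24.3 (95% exact interval 10.8 to 68.1; edgeR adjusted p = 5.6e-11). With so few D0 counts, the log2 fold change of 4.50 became 3.90 without D0 replicate 2 and 5.38 without D0 replicate 3. Both genes of the pair were thus close to zero in all D0 libraries and above it in all D5 libraries, with *Wnt10a* far the higher at D5 per unit of transcript length (29.6 ± 1.33 against 1.72 ± 0.101 TPM, transcripts per 1000000 after division by exonic length). In 3 further places 2 Wnt genes lie side by side with no annotated gene between them. There 1 of each pair or both were silent: *Wnt3a* beside *Wnt9a*, *Wnt1* beside *Wnt10b*, and *Wnt9b* beside *Wnt3*, of which *Wnt3a*, *Wnt1*, *Wnt9b* and *Wnt3* had 0 counts in all 6 libraries.

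The Wnt5 genes, which mostly signal without beta-catenin, were both low. *Wnt5a* had 1, 3 and 2 counts at D0 and 59, 48 and 52 at D5, a count ratio of 42.5 (95% exact interval 19.1 to 118; edgeR adjusted p = 9.7e-15). *Wnt5b* had 9, 9 and 14 counts and then 19, 22 and 22, a log2 fold change of 1.65 ± 0.31 (edgeR adjusted p = 1.6e-05). Neither gene's groups overlapped once scaled for library size. At D5 the 2 genes reached 0.845 ± 0.098 and 0.985 ± 0.071 TPM, which differed by little more than the spread between libraries.

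The remaining 10 ligands were silent or nearly so. *Wnt1*, *Wnt3*, *Wnt3a*, *Wnt8b*, *Wnt9b* and *Wnt16* had 0 counts everywhere, and *Wnt2*, *Wnt7a* and *Wnt8a* had at most 1 count in a library. *Wnt2b* had 1, 1 and 4 counts at D0 and 4, 4 and 0 at D5, so the groups overlapped and no difference was detectable at this depth. Thus *Wnt3a* and *Wnt7a*, the ligands often added to muscle cells in culture, were not detected or at the limit of detection in either state.

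**Figure D1:**
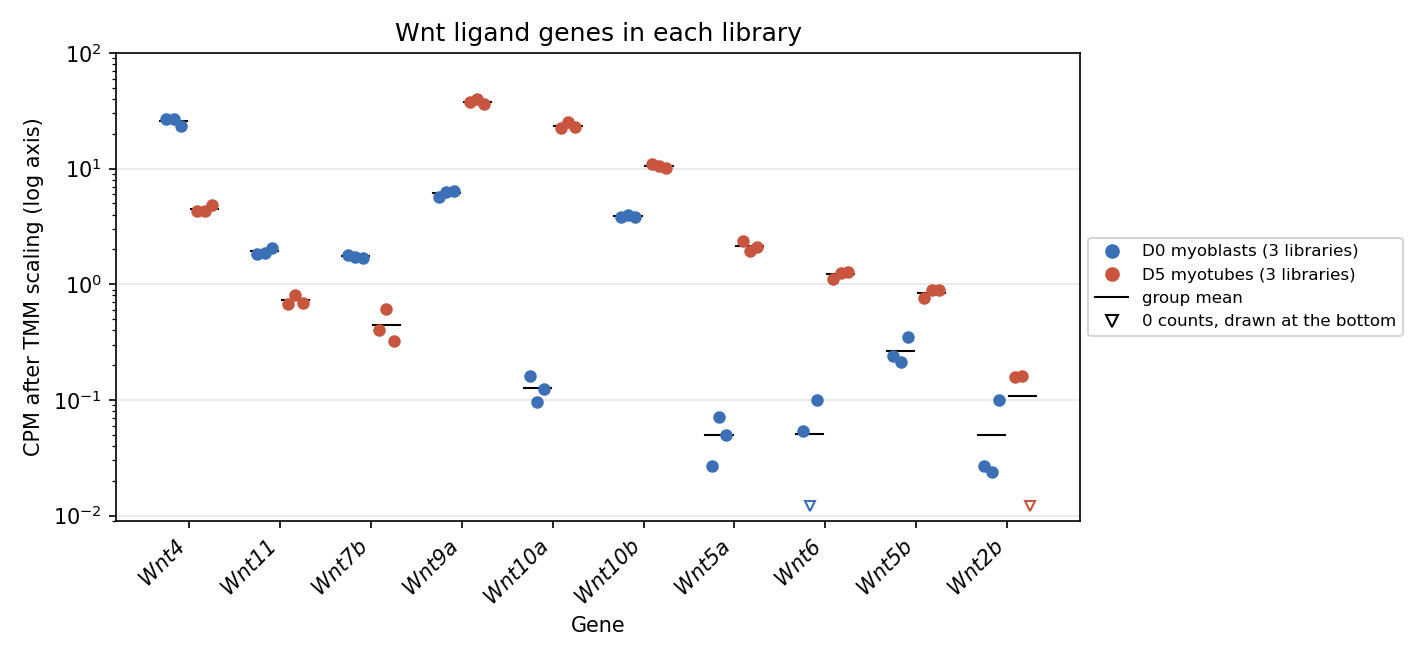
Each point is 1 library, with D0 in blue and D5 in red, the short bar is the group mean, the vertical axis is CPM on a log scale, and an open triangle at the bottom stands for 0 counts. *Wnt4*, *Wnt11* and *Wnt7b* lie higher at D0, the 6 genes from *Wnt9a* to *Wnt5b* lie higher at D5 without overlap, and *Wnt2b* overlaps.

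Divided by transcript length, the Wnt transcripts together came to 35.1, 36.1 and 34.0 TPM at D0 and to 82.9, 85.0 and 79.5 TPM at D5, a ratio of 2.35. The 3 D5 libraries were above the 3 D0 libraries, and an exact permutation test of 3 against 3 cannot go below p = 0.10. With spike-in scaling the groups overlapped, since D5 replicate 3 lay below all 3 D0 libraries, and the log2 ratio of the sums was 0.85. The make-up turned over at the same time. *Wnt4* supplied between 57.4 and 62.7% of the D0 total but between 3.68 and 4.46% at D5. *Wnt9a* went from a mean of 18.2% to 43.0% and *Wnt10a* from 0.506% to 35.9%, so that these 2 supplied most ligand transcript at D5. *Wnt10b* kept its place, with 11.2% of the total at D0 and 11.7% at D5, since its rise was close to that of the whole family. By mean TPM the D0 order was *Wnt4* (21.2), *Wnt9a* (6.36), *Wnt10b* (3.94), *Wnt11* (1.61) and *Wnt7b* (1.23). At D5 it was *Wnt9a* (35.4 ± 1.57), *Wnt10a* (29.6 ± 1.33), *Wnt10b* (9.66), *Wnt4* (3.32) and *Wnt6* (1.72), and each gap was larger than the SD of either neighbour.

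**Figure D2:**
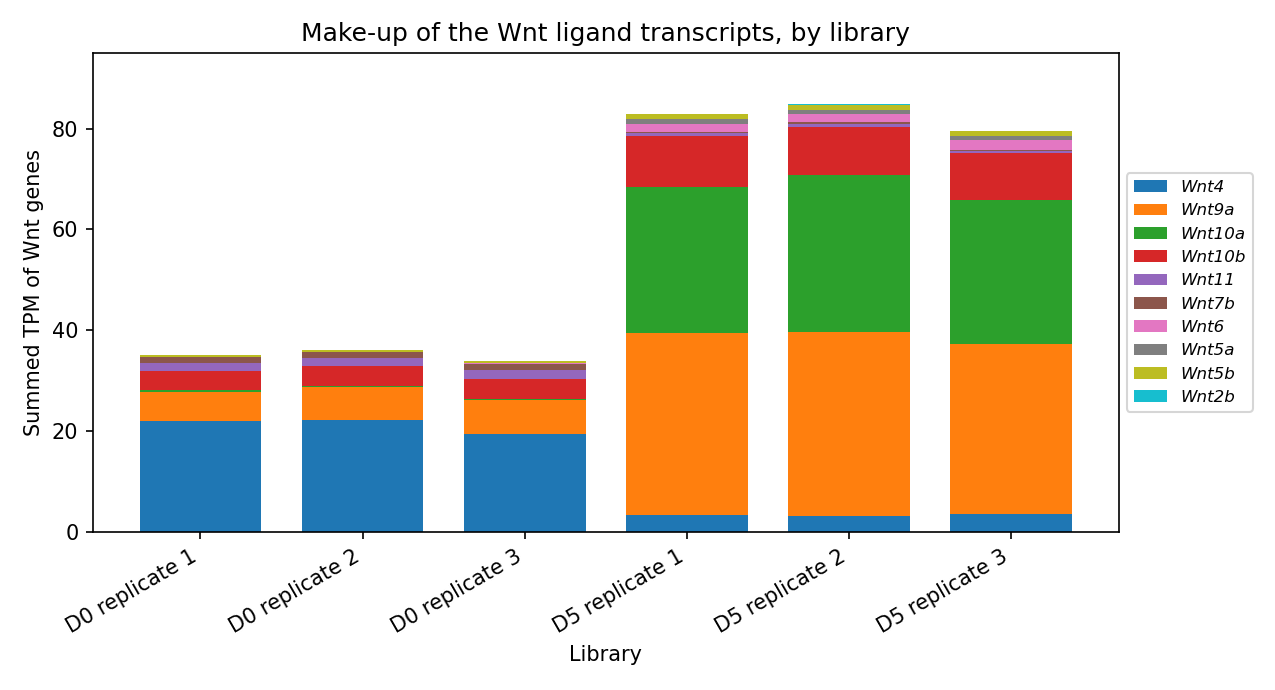
Each bar is 1 library and its height is the summed TPM of all Wnt genes, divided by gene in colour. The D0 bars are mostly *Wnt4*, and the D5 bars are mostly *Wnt9a* and *Wnt10a*, with *Wnt10b* at a similar share in both.

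Up to 250 bases before the annotated start of *Wnt9a*, *Wnt10b*, *Wnt6* and *Sfrp2* are shown as chosen examples of genes at least 2-fold higher. *Fzd1*, *Fzd5*, *Fzd9* and *Wnt5b* were also at least 2-fold higher and had windows, but are not shown. The sequences are from RefSeq (GRCm38.p6), each 5′ to 3′ on the strand of its gene. They are cut here at the start of the gene in the GENCODE annotation. Capitals mark matches to the E-box CANNTG or to the TCF and LEF core CTTTGA. Muscle regulatory factors such as *Myod1* and *Myog* recognise some of the sites that fit CANNTG. The windows are chr11:59306680-59306927 on the forward strand for *Wnt9a*, chr15:98778151-98778400 on the reverse strand for *Wnt10b*, chr1:74771642-74771891 on the forward strand for *Wnt6* and chr3:83766071-83766320 on the forward strand for *Sfrp2*.
Wnt9a: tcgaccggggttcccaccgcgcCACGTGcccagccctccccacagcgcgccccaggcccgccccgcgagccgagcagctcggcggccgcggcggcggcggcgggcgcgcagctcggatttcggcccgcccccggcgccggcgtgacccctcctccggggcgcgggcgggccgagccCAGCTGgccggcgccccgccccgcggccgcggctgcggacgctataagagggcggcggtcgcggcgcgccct
Wnt10b: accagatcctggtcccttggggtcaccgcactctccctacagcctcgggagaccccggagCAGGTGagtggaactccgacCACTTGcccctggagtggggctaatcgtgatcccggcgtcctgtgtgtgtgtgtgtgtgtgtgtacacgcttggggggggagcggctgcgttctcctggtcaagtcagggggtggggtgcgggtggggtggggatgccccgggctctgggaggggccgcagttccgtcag
Wnt6: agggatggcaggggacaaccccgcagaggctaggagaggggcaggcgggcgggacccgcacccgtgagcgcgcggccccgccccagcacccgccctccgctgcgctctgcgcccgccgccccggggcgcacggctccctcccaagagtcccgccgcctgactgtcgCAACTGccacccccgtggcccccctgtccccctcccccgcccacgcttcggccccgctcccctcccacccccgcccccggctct
Sfrp2: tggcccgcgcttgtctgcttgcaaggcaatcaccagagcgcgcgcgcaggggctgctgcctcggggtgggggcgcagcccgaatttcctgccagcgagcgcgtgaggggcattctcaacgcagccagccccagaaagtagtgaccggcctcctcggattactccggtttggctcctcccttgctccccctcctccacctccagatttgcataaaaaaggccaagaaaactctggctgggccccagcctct
*Wnt9a* and *Wnt10b* hold 2 E-boxes each, *Wnt6* holds 1, *Sfrp2* holds none, and none of the 4 holds CTTTGA on either strand. RefSeq promoter windows were available for 27 of the 41 genes, among them 8 of the 14 that were at least 2-fold higher. Of these 8, 7 had an E-box and 2 had CTTTGA (*Fzd1* and *Wnt5b*), against 66.2% and 13.8% of all 32851 promoters in the table searched on both strands. Of the 2 genes with a window that were at least 2-fold lower, *Wnt4* and *Wnt11*, both had an E-box. *Wnt11* also had CTTTGA, in another of its windows. These counts use the uncut windows of 250 bases. In them the E-boxes of *Wnt4*, *Wnt11* and *Fzd9* and the CTTTGA of *Wnt5b* lie within the annotated genes. A gene was counted if any of its windows matched, and *Wnt5b* and *Wnt11* had more than 1 window. The shares of all promoters are per window, so the measures are not alike. The E-box variants CAGCTG and CACCTG, which are also counted within CANNTG, were in 1 and 3 of the 8 and in 13.0% and 17.2% of all promoters. A match describes letters in this window and says nothing of binding.

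The receptors had log2 fold changes between -0.27 and 1.78, and nearly the whole family was already present at D0. Of 10 Frizzled genes, *Fzd10* had 0 counts in every library and the other 9 were tested. The receptor calls depended on scaling: 6 receptors were higher at D5, 2 were lower and *Fzd6* passed no test, but none of the 9 passed the test when libraries were scaled to the spike-ins, and *Fzd2*, *Fzd6* and *Fzd7* then turned to lower.

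*Fzd1* and *Fzd5*, receptors of the beta-catenin branch, showed the clearest rises among the well expressed receptors. *Fzd1* had 1122, 1170 and 1209 counts at D0 and 1644, 1662 and 1643 at D5, or 29.3 ± 1.25 and 66.3 ± 1.02 CPM (log2 fold change 1.18 ± 0.044, edgeR adjusted p = 5.3e-21). *Fzd5* had 553, 687 and 694 counts and then 917, 961 and 979, or 16.1 ± 1.25 and 38.3 ± 1.55 CPM (1.25 ± 0.056, edgeR adjusted p = 7.8e-19). Neither gene's groups overlapped, but with spike-in scaling their log2 fold changes were 0.62 and 0.68 with adjusted p of 0.37 and 0.32. Of the exonic bases of *Fzd5*, 17.8% are shared with *Gm38058* on the other strand, which had between 3 and 13 counts in a library.

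*Fzd8* and *Fzd9* are rare in these cells. *Fzd8* had 52, 68 and 46 counts at D0 and 130, 110 and 116 at D5 (log2 fold change 1.78 ± 0.15, edgeR adjusted p = 4.1e-12). *Fzd9*, known from the neuromuscular junction and bone, had 44, 31 and 30 counts and then 58, 84 and 36 (1.44 ± 0.24, edgeR adjusted p = 3.9e-06). The D5 libraries of *Fzd9* were the most spread of any receptor relative to their mean, at 2.39 ± 0.983 CPM, and the lowest of them, replicate 3 with 1.45 CPM, lay just above the highest D0 library with 1.17 CPM. With spike-in scaling the log2 fold changes were 1.20 for *Fzd8* and 1.03 for *Fzd9*, with edgeR adjusted p of 0.069 and 0.13.

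*Fzd2* and *Fzd7*, the most abundant receptors, moved little. *Fzd7*, the receptor through which Wnt7a is known to act on satellite cells, went from 72.2 ± 1.16 to 90.7 ± 1.53 CPM (log2 fold change 0.33 ± 0.036, edgeR adjusted p = 1.4e-09). *Fzd2* had 59.7 ± 0.591 and 76.5 ± 2.12 CPM (0.36 ± 0.038, edgeR adjusted p = 6.9e-10). With spike-in scaling these became -0.24 and -0.20.

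*Fzd3*, a receptor of the polarity branch, and *Fzd4*, the receptor for norrin in retinal vessels, were slightly lower at D5, and with spike-in scaling their log2 fold changes were -0.72 and -0.82 with edgeR adjusted p of 0.28 and 0.22. *Fzd3* went from 53.6 ± 0.731 to 48.4 ± 0.711 CPM (log2 fold change -0.15 ± 0.041, edgeR adjusted p = 0.0015). *Fzd4* went from 15.4 ± 0.939 to 12.7 ± 0.449 CPM (-0.27 ± 0.068, edgeR adjusted p = 5.8e-04). *Fzd6*, another polarity receptor, had 21.5 ± 0.643 and 22.3 ± 0.982 CPM, its groups overlapped, and its sign changed with scaling (0.06 ± 0.055, edgeR adjusted p = 0.34).

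Per transcript length, *Fzd2* (56.4 ± 0.627 TPM) and *Fzd7* (55.1 ± 1.71 TPM) led at D0 and did not differ beyond the spread between libraries. *Fzd1* followed with 24.1 TPM, then *Fzd6* with 15.4, *Fzd3* with 14.5, *Fzd5* with 8.06, *Fzd4* with 7.90, *Fzd9* with 1.33 and *Fzd8* with 0.800, where *Fzd5* and *Fzd4* also lay within their spread. At D5 the same 3 genes led, with *Fzd2* at 64.7, *Fzd7* at 62.0 and *Fzd1* at 49.0 TPM, and *Fzd5*, at 17.2 TPM, had passed *Fzd6* and *Fzd3*. *Fzd1* went from 13.1% to 21.2% of the receptor transcripts and *Fzd5* from 4.39% to 7.44%. The family total was 184 ± 3.14 TPM at D0 and 231 ± 1.67 TPM at D5, a ratio of 1.26, while spike-in scaling gave a log2 ratio of -0.071 with overlapping groups.

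**Figure D3:**
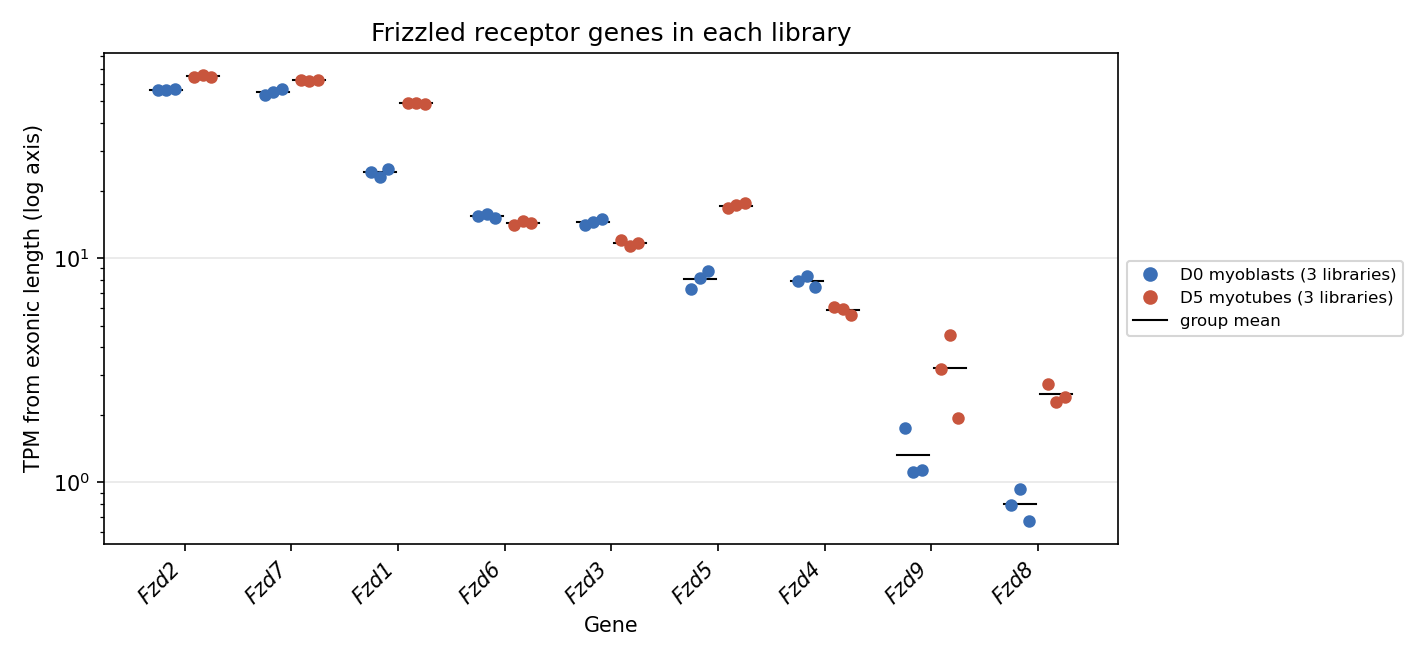
Each point is 1 library, D0 in blue and D5 in red, the bar is the group mean, and the vertical axis is TPM on a log scale. *Fzd2* and *Fzd7* lead in both groups with small differences whose sign turned with spike-in scaling, *Fzd1* and *Fzd5* lie about 2-fold higher at D5, and the D5 points of *Fzd9* are widely spread.

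*Sfrp2*, an Sfrp known from fibroblasts and from muscle during development and repair, had 4, 10 and 2 counts at D0 and 907, 1034 and 1076 at D5. It went from 0.131 ± 0.096 to 40.4 ± 3.80 CPM, and the summed counts, corrected for library size, were 303 times higher (95% exact interval 186 to 530, counting error only; edgeR adjusted p = 3.6e-29). D0 replicate 2 held most of the D0 counts, and the log2 fold change went from 8.20 to 8.95 without it. Each D0 library was close to zero and each D5 library was far above it. Its gene lies at chr3:83766321-83774316 on the forward strand, and the opposite-strand gene that shares 16.1% of its exonic bases, *Gm26771*, never exceeded 1 count. Of the other members with an opposite-strand gene over their exons, *Fzd6*, *Rspo3*, *Wnt11*, *Wnt7b* and *Wnt5a*, the shared part ran from 3.16 to 13.1% and the partner had at most 9 counts in a library.

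*Sfrp4*, an antagonist known from bone, had 33, 49 and 51 counts at D0 and 267, 218 and 189 at D5. This was an 8.11-fold rise without overlap, from 1.10 ± 0.200 to 9.02 ± 1.52 CPM (log2 fold change 3.02 ± 0.15, edgeR adjusted p = 6.9e-18). *Sfrp1* had 3, 2 and 5 counts and then 9, 8 and 15, too few to pass the filter. Its count ratio was 5.14 (95% exact interval 2.46 to 11.7), and the edgeR fit without a filter gave it an adjusted p of 5.6e-05. *Sfrp5* had 0 counts in every library. Summed per transcript length, the Sfrp genes reached 1.19 ± 0.225 TPM at D0, of which 76.9% was *Sfrp4*, and 65.2 ± 3.31 TPM at D5, of which 89.2% was *Sfrp2*.

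*Dkk3*, the divergent Dickkopf, whose place as a Wnt antagonist is not settled, had 2, 4 and 4 counts at D0 and 451, 435 and 425 at D5. Its summed counts, corrected for library size, were 210 times higher (95% exact interval 114 to 440; edgeR adjusted p = 5.7e-27), and it made up 95.8% of the Dickkopf transcripts at D5. *Dkk2*, which binds *Lrp5* and *Lrp6*, stayed low, with 14, 22 and 23 counts at D0 and 23, 16 and 25 at D5. Scaled, its groups were apart but near each other, 0.489 ± 0.103 against 0.857 ± 0.185 CPM (log2 fold change 0.80 ± 0.28, edgeR adjusted p = 0.01). The call was lost without D0 replicate 1 (0.63, edgeR adjusted p = 0.061) and without D5 replicate 3 (0.67, edgeR adjusted p = 0.069). *Dkk1* and *Dkk4*, the other antagonists of the co-receptors, had 0 counts in all 6 libraries.

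The R-spondins were scarce. *Rspo2*, known for its role in limb and muscle development, had 0 counts in every D0 library and 12, 13 and 13 at D5, at least 6.76-fold higher against a floor of 3 counts per D0 library (edgeR adjusted p = 5.9e-09). *Rspo1* had 0, 2 and 1 counts and then 15, 7 and 12, a count ratio of 18.2 (95% exact interval 5.72 to 92.5). *Rspo3* had 1, 1 and 2 counts and then 4, 10 and 4, a ratio of 7.22 (95% exact interval 2.38 to 29.3). Neither passed the filter, and the fit without it gave adjusted p of 1.1e-08 and 0.0013 by edgeR. *Rspo4* had 1 count in 1 D5 library. All D5 libraries were above all D0 libraries for *Rspo1*, *Rspo2* and *Rspo3*, but even at D5 the family summed to only 1.30 ± 0.121 TPM.

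Of the 5 fibroblast markers, 4 moved the same way as *Sfrp2*, *Sfrp4*, *Dkk3* and the R-spondins. Between D0 and D5, *Dcn* went from 0.375 to 242 CPM, *Dpt* from 0.082 to 20.1, *Pdgfra* from 1.04 to 24.0 and *Pi16* from 0.175 to 2.95, while *Ly6a* had 35.0 and 33.4 CPM. All 9 myotube markers were higher at D5 as well. The part of the fibroblast or myotube markers in these rises was not tested, and neither was that of the proliferation markers. The summed level of the proliferation markers was between 1814 and 1828 CPM at D0 and between 93.6 and 104 CPM at D5.

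**Figure D4:**
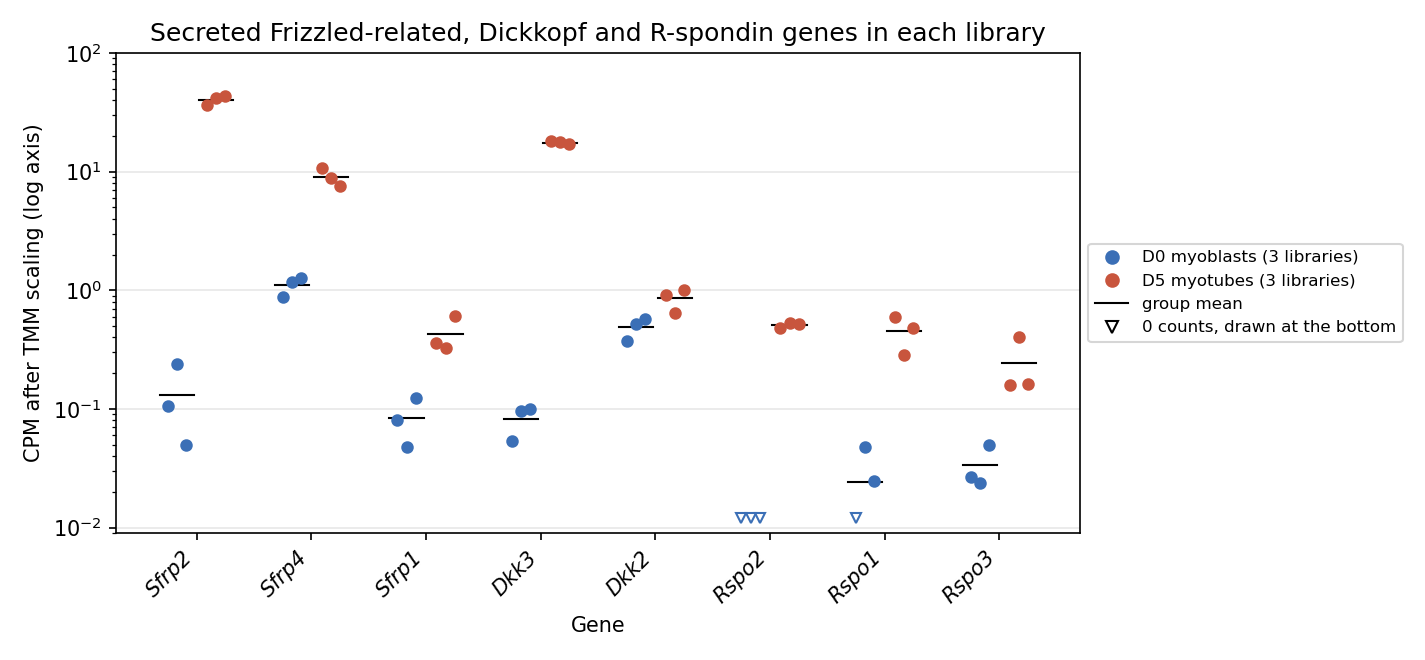
Each point is 1 library, D0 in blue and D5 in red, the bar is the group mean, the vertical axis is CPM on a log scale, and open triangles at the bottom stand for 0 counts. *Sfrp2* and *Dkk3* span more than 100-fold between the groups, *Sfrp4* rises from a measurable D0 level, *Dkk2* barely separates, and *Rspo2* is at 0 in all 3 D0 libraries.

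**Figure D5:**
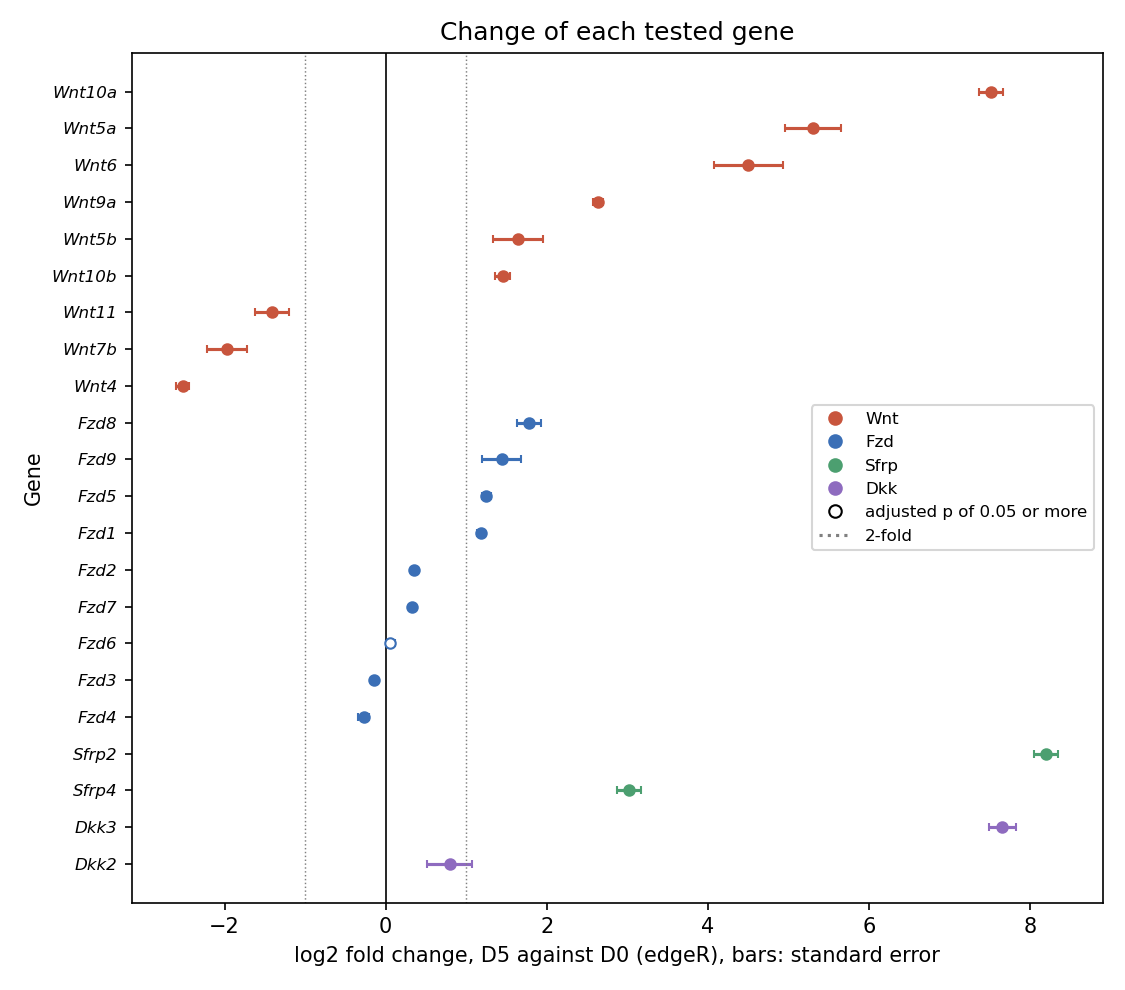
Each point is the log2 fold change of D5 against D0 for 1 tested gene, coloured by family, with its standard error, dotted lines at 2-fold, and an open point where the adjusted p was 0.05 or more (*Fzd6*). The ligands spread from -2.52 to 7.51 and the receptors from -0.27 to 1.78, with *Fzd2*, *Fzd6* and *Fzd7* turning below 0 under spike-in scaling, and *Rspo2*, which had no D0 counts, is not drawn.

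Around the ligands and receptors, the rest of the pathway was read from a list of 81 genes. Of these, 67 were tested (the rest had too few counts), 35 were higher and 26 lower at D5, and 20 and 8 of them passed 2-fold, where all genes gave 42.2% higher and 40.8% lower, and 19.3% and 16.0% at 2-fold. With spike-in scaling 13 were higher and 10 lower, so most calls of the list did not hold. Which of its genes kept their call or sign is not given here. The rises below of *Lrp5* (0.33), *Znrf3* (0.26) and *Ctnnb1* (0.14) were no larger than that of *Fzd2* (0.36), whose sign turned under that scaling. In the reported fit the median log2 fold change of the list was 0.25, beside 0.0022 over all genes tested. With 82.9% of all genes called, calls in both directions within a group of the list are the background and say nothing particular to it.

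The machinery that exports Wnts moved in both directions. *Porcn*, the enzyme that attaches the lipid that Wnts need for secretion and binding, rose from 6.93 ± 0.524 to 128 ± 8.25 CPM (log2 fold change 4.20 ± 0.057, edgeR adjusted p = 1.9e-32). *Wls*, which carries Wnts to the surface, fell from 490 ± 3.69 to 364 ± 3.10 CPM (-0.43 ± 0.031, edgeR adjusted p = 9.0e-14). *Notum*, which removes that lipid, was rare, with 5 to 9 counts in a D0 library, but higher at D5, with 0.168 and 0.549 CPM (1.70).

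Of 7 co-receptors, 6 were higher at D5 and 1 was lower. *Lrp6* had 114 and 193 CPM (log2 fold change 0.76) and *Lrp5* 79.8 and 100.3 CPM (0.33). *Ror2*, a receptor for Wnt5a, rose from 0.710 to 3.75 CPM (2.40), and *Musk*, the receptor kinase of the neuromuscular junction, which has a Frizzled-like domain, rose from 64.7 to 245 CPM (1.92). *Ptk7*, a polarity co-receptor, fell from 78.5 to 33.0 CPM (-1.25).

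In the R-spondin axis, the receptor and the ligases differed. *Lgr4*, the main R-spondin receptor here, fell from 79.1 to 32.6 CPM (log2 fold change -1.28). *Rnf43*, a ligase that removes Frizzled from the surface, rose from 0.127 to 0.523 CPM (2.03), with 4 to 7 counts in a D0 library. *Znrf3* rose from 29.0 to 34.8 CPM (0.26), and *Lgr5* and *Lgr6* passed no test. Of the 13 other antagonists only 4 were tested. *Shisa2*, which holds Frizzled inside the cell, rose from 0.125 to 3.19 CPM (4.63), with 4 to 6 counts in a D0 library. *Kremen1*, a Dickkopf receptor, fell from 336 to 186 CPM (-0.86). Among the glypicans, which bind Wnts at the cell surface, *Gpc6* rose from 22.6 to 62.1 CPM (1.46), and *Gpc4* had at most 1 count in a D0 library and 0.590 ± 0.164 CPM at D5.

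All 15 cytoplasmic genes were tested, 7 were higher and 8 lower, and *Dvl1*, *Frat1* and *Frat2* passed 2-fold, upward. *Dvl1*, a scaffold that receptors recruit, went from 81.1 to 166 CPM (log2 fold change 1.03), and *Ctnnb1*, beta-catenin itself, from 547 ± 22.9 to 603 ± 9.19 CPM (0.14). Of the 14 nuclear genes, 5 were higher and 5 lower. *Lef1* fell from 24.8 to 6.74 CPM (-1.88), *Tcf7* rose from 4.57 to 14.0 CPM (1.62), and *Tle2*, a co-repressor, rose from 12.1 to 27.2 CPM (1.17).

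Of 14 genes known as targets of the beta-catenin branch, 8 were higher, 3 were lower, 1 passed no test and 2 were not tested. Over all genes tested, 42.2% were higher and 40.8% lower. The list is not separate from the groups above, which also count *Tcf7*, *Lef1*, *Rnf43*, *Znrf3*, *Lgr5*, *Notum* and *Apcdd1*. *Axin2*, the most widely used reporter of the pathway, rose from 1.01 ± 0.058 to 6.37 ± 0.451 CPM (log2 fold change 2.65 ± 0.14, edgeR adjusted p = 8.5e-17). *Nkd2* rose from 0.167 to 5.37 CPM (4.98), with 5 to 8 counts in a D0 library, and *Tnfrsf19* from 0.423 to 7.32 CPM (4.09). *Myc* (-2.01), *Ccnd1* (-0.79) and *Lef1* fell, and the first 2 of these also belong to the proliferation program. *Nkd1* had 0 counts in each D0 library and 2, 1 and 2 at D5, and *Sp5* had 0 throughout.

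Among the planar polarity genes, 4 were at least 2-fold higher and 4 at least 2-fold lower among 11 tested. *Daam1* and *Daam2*, relatives that link Dishevelled to actin, moved in opposite directions, from 329 to 61.9 CPM (log2 fold change -2.41) and from 4.78 to 167 CPM (5.13). *Prickle2* (5.75), *Prickle3* (3.41) and *Celsr3* (3.15) rose, and *Vangl2* (-1.44) and *Celsr1* (-2.04) fell, as did *Vangl1*, from 46.0 to 22.9 CPM. All pathway values come from the same edgeR fit, and each gene said to rise or fall passed it at an adjusted p under 0.05.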

How the data were processed

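RNA-seq libraries from total RNA of C2C12 cells were deposited as 1 table of gene counts per library. The authors made these raw counts per gene with featureCounts on GRCm38, per the labels after alignment with Tophat2, while the methods of the study name HISAT2. Whether counting used strand is not given in the sources used here. The 92 rows of ERCC spike-ins were kept out of library sizes and tests. From the deposited counts, edgeR 4.0.16 (R 4.3.3) was run with TMM scaling, filterByExpr and the quasi-likelihood test, D5 against D0 with no block, and p-values were Benjamini-Hochberg adjusted over the 16290 genes tested. CPM used TMM library sizes, and TPM used exonic lengths of the GENCODE annotation, found for 99.93% of gene rows. All 41 genes were described, with full statistics from 10 counts in a group on, and pathway genes were named from 2-fold on, with *Axin2*, *Lef1*, *Nkd1*, *Ccnd1* and *Myc* always and the others after their values were seen. Among the 41 genes, a lower bound was given only where all D0 libraries had 0 counts. A count ratio with its exact 95% interval was given where they had few and D5 lay above. Pathway genes got neither. Of those named, *Gpc4*, *Nkd2*, *Shisa2*, *Rnf43*, *Notum*, *Prickle2* and *Prickle3* had at most 11 counts in a D0 library, so their folds are rough. The genes and lists were chosen with earlier results of these data known. The variance between replicates of a group was 2.16 to 3.45 times that of Poisson counting, so they differed beyond counting error. This does not tell whether they came from separate cultures or RNA preparations. No 50-base stretch was shared between transcripts of different members. Alternatives were DESeq2 1.42.0, other scalings and filters, the replicate number as a block, and each library left out. On simulated data with most genes unchanged, the script was checked for recovery of known changes. That check did not cover a setting like this one, where 82.9% of the genes tested differed.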

Additional observations from a re-analysis of the deposited data

How the results depend on the processing

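Under DESeq2, upper-quartile scaling, total counts and no filter, all 22 calls among the members were shared with the reported fit. The sign of *Fzd6*, which passed no test, turned to -0.028 with total counts. Scaling to the ERCC spike-ins, whose share varied within D5, changed most: 67.4% of calls were then lower, against 49.2%, 5560 of all genes were called, and 11 of the 22 member calls were shared. It left 8 members higher, all 8 at least 2-fold, and 3 lower, and 13 pathway genes higher and 10 lower. *Fzd2* (-0.20), *Fzd7* (-0.24) and *Fzd6* (-0.50) turned sign, *Fzd2* and *Fzd7* thereby losing their calls. Calls were also lost, with unchanged sign, for *Dkk2* (0.083), *Fzd1* (0.62), *Fzd5* (0.68), *Fzd8* (1.20), *Fzd9* (1.03), *Wnt10b* (0.89) and *Wnt5b* (1.02), and for *Fzd3* (-0.72) and *Fzd4* (-0.82), whose change was larger than reported. Family sums scaled this way, an alternative chosen after seeing the data, had log2 ratios of 0.85 for Wnt, -0.071 for Frizzled, 5.36 for Sfrp and 4.54 for Dkk, and sums of CPM in place of TPM gave 1.04 for Wnt, 0.42 for Frizzled and 5.24 for Sfrp. Requiring at least 10 counts in every library left 15 members. Genes with few D0 counts are then not tested, nor is *Wnt7b*, which had 8 counts in D5 replicate 3. Of the 15, 10 were higher and 4 lower, with 7 at least 2-fold higher and 2 at least 2-fold lower.

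With the replicate number as a block, 17 members were higher and 5 lower, as without it, and no member call changed. The numbers were not taken to pair the libraries, because correlations of same-numbered deviations were between 0.028 and 0.065, although each library correlated best with its own number, a hint from the data and not the design. Leaving out 1 library at a time gave 17 to 19 members higher and 5 lower in each fit, and *Dkk2* alone lost its call. Without 1 library the fold moved by over 1.5 times for 2 genes, with log2 values of 8.95 for *Sfrp2* without D0 replicate 2, and of 3.90 and 5.38 for *Wnt6* without D0 replicates 2 and 3. At this depth, genes under about 10 counts cannot be told from near silence, and 3 libraries a group limit every test.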
